A study of Mus musculus with 8 samples.

Results

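The fatty acid oxidation and ketogenesis genes are 40 genes chosen by symbol, and all 40 were among the 11784 genes of the liver table. They cover the regulators of the pathway, fatty acid uptake and activation, the carnitine shuttle, the mitochondrial and peroxisomal oxidation enzymes, ketone body enzymes and further targets of the receptor PPARA. Livers came from 8 male C57BL/6J mice that were put on amino acid defined diets at 9 weeks of age. The 4 Control mice ate TD.140711, with 22% of calories from amino acids, and the 4 Low AA mice ate TD.140712, with 7.1%. Carbohydrate made up the calories, and the share from fat was nearly equal. Diets lasted 4 months and food was withdrawn overnight, for about 16 hours, before killing, so every value describes fasted liver, and no fed group is part of the comparison. Each library came from 1 mouse, and the mice are called Control mouse 1 to 4 and Low AA mouse 1 to 4, numbers that name a mouse and pair nothing.

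During a fast the liver takes up fatty acids released by adipose tissue, couples them to coenzyme A and carries them into mitochondria on carnitine. There each round of β-oxidation shortens the chain and yields acetyl-CoA, which the fasted liver turns into ketone bodies for other tissues. Peroxisomes shorten very long chain and branched fatty acids by a parallel set of enzymes. PPARA, a nuclear receptor that binds fatty acids, is the main transcriptional regulator of this program and pairs with RXR on direct repeats of the hexamer AGGTCA.

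The deposited values are whole numbers that appear to be read counts scaled between mice and rounded, and they are called scaled read counts here. Their sums ran from 28361406 to 29485422 among Control mice and from 27876664 to 30799385 among Low AA mice. Values were turned into log2(value + 1), the diets were compared by limma with p adjusted over all 11784 genes, and a gene was called at an adjusted p under 0.05. The log2 difference is the mean log2 value on the Low AA diet minus that on the Control diet, given with its standard error (SE), and it understates changes of low genes. Hepatocyte markers were abundant, with 9 of 10 in the table and Alb between 1321262 and 1789498 in every mouse. Of those 9, 7 had a higher mean log2 value on the Low AA diet, and none was called. Their sums were 2301444 to 2684073 on the Control diet and 2540103 to 2794889 on the Low AA diet. The log2 difference of Alb was 0.20 (SE 0.17, limma adjusted p = 0.717). None of the listed markers of other cell types was called, and none of those in the table was at 0 in any mouse. Of these, 9 of 9 Kupffer cell markers had a higher mean log2 value on the Low AA diet, with sums of 9882 to 13901 against 9076 to 13930 on the Control diet, and 0 of 4 cholangiocyte markers did, with sums of 826 to 1316 against 1124 to 2265. Stellate (2 of 7 higher), endothelial (4 of 6) and blood markers (0 of 3) went both ways or lower, with the stellate Col1a1 (70 to 147 on the Control diet, 37 to 69 on the Low AA diet) and the blood gene Alas2 (1362 to 2111 and 911 to 1332) lower without overlap. In addition, 1 of 6 adipocyte markers was in the table, and muscle markers were not among the genes listed. The pancreas gene Cela1 stood at 36587 in Control mouse 2 and at 130 to 288 in the other 7 mice. The part of these cells in the results was not tested. In whole liver, fewer cells of a type and less RNA per cell cannot be told apart.

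The promoters of these genes were read in RefSeq's table for GRCm38.p6, the assembly that mm10, the build in the submitters' processing notes, corresponds to. The window ran from 250 bases before to 50 bases after the start, and 34 of the 40 genes had an entry. Decr1, Acaa2, Hsd17b4, Crat, Acat1 and Vnn1 had none. The exact repeat, a pair of AGGTCA hexamers in the same direction with 1 base between them, on either strand, was in 0 of 34 members and in 4 of 8500 genes of the table, 0.0471%. The single hexamer AGGTCA on either strand, which the repeats also contain, was in 8 of 34 members (23.5%) and in 1311 of 8500 genes (15.4%). The members with it were Slc27a2, Acadm, Plin2, Fabp1, Echs1, Creb3l3, Acadvl and Cpt1a. A looser repeat, the same pair with any base N at the fourth place of each hexamer (AGGNCA), was searched after the exact one and was in 1 of 34 members, Fabp1, and in 33 of 8500 genes (0.388%). The 250 bases before the start are shown for Fabp1, the member with that repeat and the highest level per length, for Bdh2, the member whose difference was called, and for Etfdh and Pex11a, the members with the next lowest adjusted p. Capitals mark matches to any of the 3 motifs. Fabp1 lies at chr6:71199629-71199878 on the plus strand, Bdh2 at chr3:135280971-135281220 on the plus strand, Etfdh at chr3:79628768-79629017 on the minus strand and Pex11a at chr7:79743132-79743381 on the minus strand, each printed 5′ to 3′ along its gene. The windows count from the RefSeq start, so that of Etfdh lies inside the GENCODE span of the gene, as do the last bases of that of Fabp1.
Fabp1: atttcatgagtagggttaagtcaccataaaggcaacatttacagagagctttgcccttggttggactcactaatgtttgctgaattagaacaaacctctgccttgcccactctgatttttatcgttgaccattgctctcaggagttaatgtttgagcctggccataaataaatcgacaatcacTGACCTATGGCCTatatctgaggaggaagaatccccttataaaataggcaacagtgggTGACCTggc
Bdh2: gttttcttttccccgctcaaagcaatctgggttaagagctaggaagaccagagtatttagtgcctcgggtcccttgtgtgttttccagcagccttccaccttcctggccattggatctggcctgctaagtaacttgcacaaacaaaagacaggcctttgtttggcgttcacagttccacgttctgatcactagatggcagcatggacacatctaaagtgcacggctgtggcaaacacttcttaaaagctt
Etfdh: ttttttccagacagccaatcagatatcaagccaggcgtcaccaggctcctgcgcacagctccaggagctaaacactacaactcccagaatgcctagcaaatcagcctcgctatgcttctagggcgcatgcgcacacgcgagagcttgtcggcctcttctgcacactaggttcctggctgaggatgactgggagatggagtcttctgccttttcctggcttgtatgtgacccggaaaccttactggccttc
Pex11a: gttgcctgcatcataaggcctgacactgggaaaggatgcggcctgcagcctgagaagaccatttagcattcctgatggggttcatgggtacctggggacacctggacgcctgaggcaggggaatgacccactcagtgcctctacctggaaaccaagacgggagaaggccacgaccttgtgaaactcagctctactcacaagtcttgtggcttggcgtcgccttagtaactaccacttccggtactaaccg
In Fabp1 the match TGACCTATGGCCT covered bases 184 to 196 of the window, and a further single hexamer covered bases 242 to 247, inside the GENCODE span of the gene. None of the 3 motifs was in the printed bases of Bdh2, Etfdh or Pex11a, which says nothing about sites elsewhere.

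Levels of different genes were compared per kilobase of the longest principal transcript in GENCODE. Fabp1, the liver fatty acid binding protein, stood first of the 40, with a mean of 225764 scaled read counts per kilobase on the Control diet and 264324 on the Low AA diet, on a transcript of only 553 bases. Acaa1b, a peroxisomal thiolase, followed with 47326 and 54376, and Ehhadh, the peroxisomal bifunctional enzyme, with 37793 and 38585. The ranges of Acaa1b and Ehhadh over the mice overlapped, although Acaa1b was the higher within each of the 8, and Fabp1 was above both in all 8 mice. At the low end were Pdk4, with 352 and 906 per kilobase, Ppargc1a, with 172 and 210, and Bdh2, with 78.4 and 31.4. Fabp1 thus had the top level per length and Bdh2 the lowest of the 40.

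**Figure D1:**
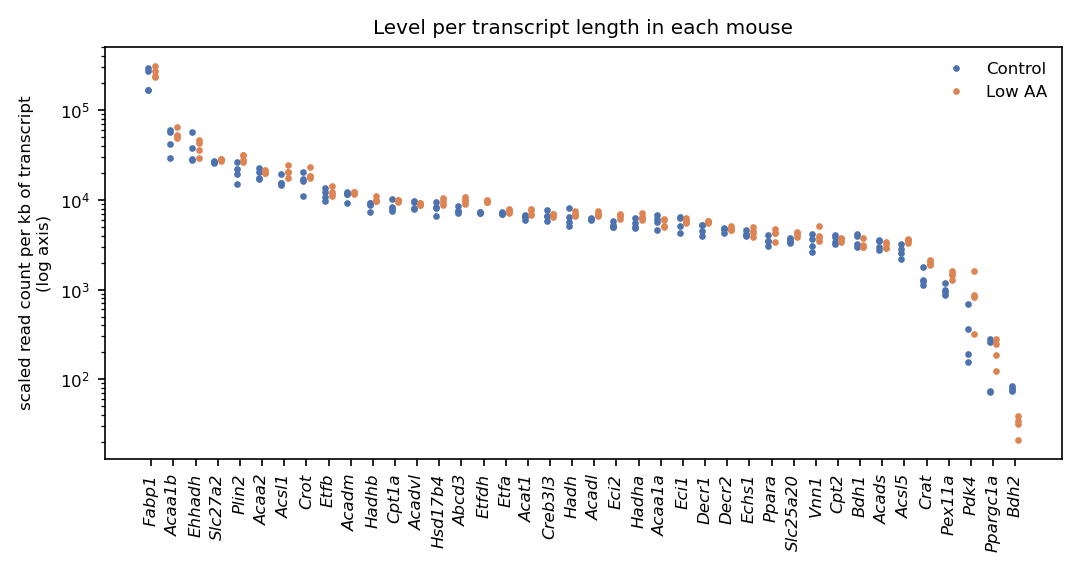
Scaled read count per kilobase of transcript (log axis) of the 40 genes, ordered by their mean over both diets, with 1 point per mouse and the diets in 2 colours. Fabp1 lies apart at the top and Bdh2 at the bottom, where its Low AA points are below its Control points.

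Most of the 40 genes were slightly higher on the Low AA diet, but 1 passed the test, and it was lower. Bdh2 was called lower, where 0.297% of all genes were called lower, and 0 members were called higher, where 0.102% of all genes were. At an unadjusted p under 0.05 there were 12 members higher, where 5.13% of all genes were, and 1 lower, where 6.70% were. The log2 difference was above 0 in 36 of 40 members and in 50.5% of all genes. Its median was 0.22 over the members and 0.00 over all genes, of which the middle part between the quartiles ran from -0.14 to 0.13. It was at least 0.5 in 5 members, Pdk4, Crat, Pex11a, Plin2 and Ppargc1a, where 2.73% of all genes reached that. The size of the difference stayed under 0.5 in 34 of the 40 members and in 10968 of all 11784 genes.

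In 11 members, 27.5%, all 4 Low AA mice lay above all 4 Control mice, where 3.26% of all genes did so. In 1 member, Bdh2, they lay below, where 3.55% of all genes did so. The 11 were Acsl5, Slc25a20, Acadl, Hadhb, Eci2, Decr1, Etfdh, Crat, Abcd3, Pex11a and Acat1. The count depended on the scaling. With every mouse brought to an equal total, 7 members did not overlap, 6 of them higher (2.89% of all genes) and 1 lower (3.66%), and 6 of the 7 were among the 12, while Acsl5, Acadl, Hadhb, Eci2, Crat and Abcd3 then overlapped. The genes were chosen with earlier results of these mice known, so these shares describe the list and are no test of it.

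**Figure D2:**
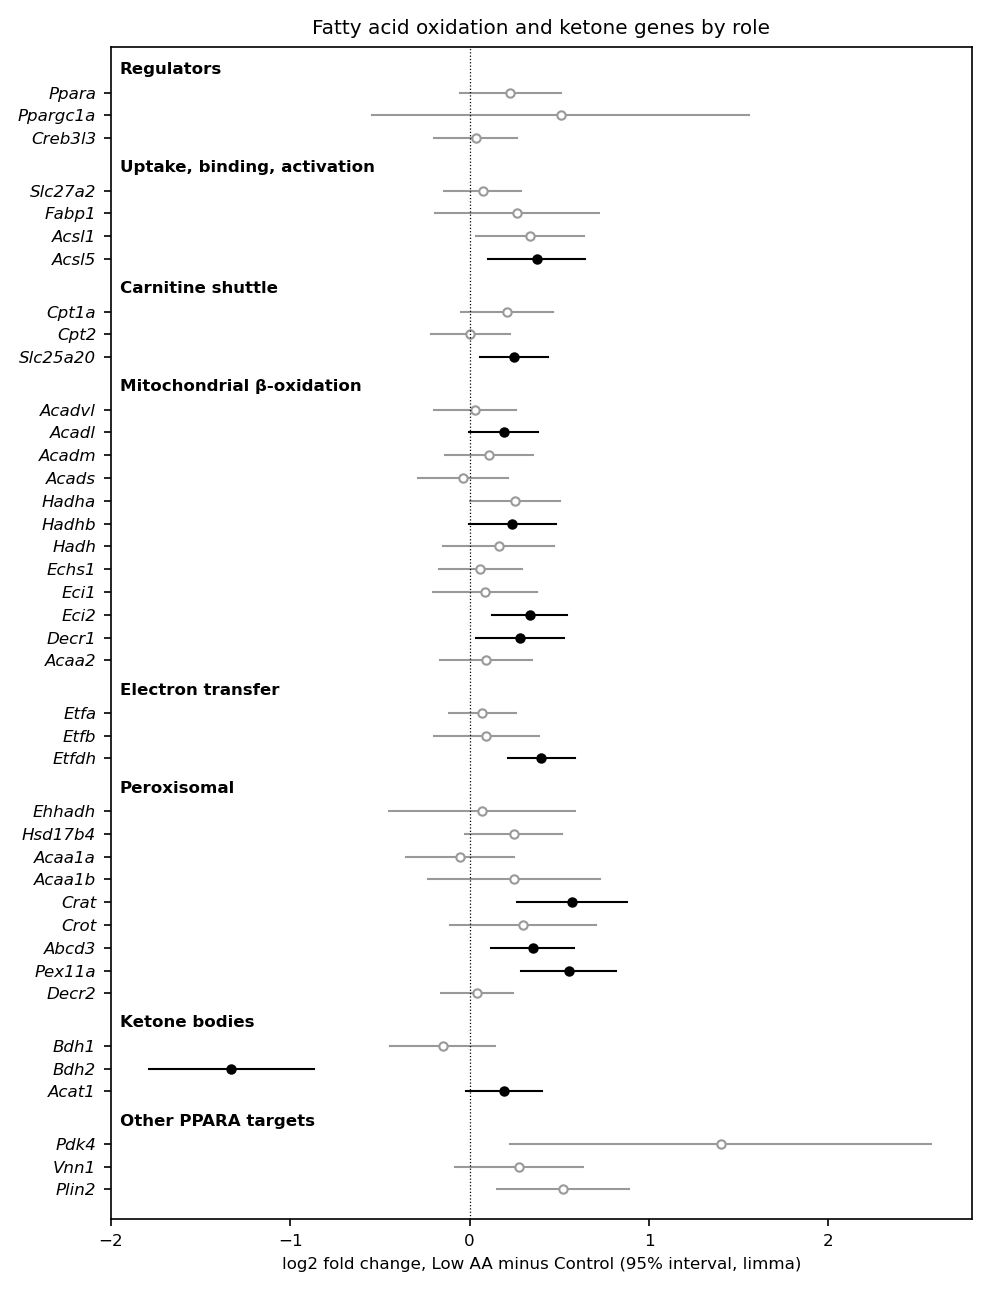
Log2 difference (axis label: log2 fold change) of each gene, Low AA minus Control, with its 95% interval from limma on the horizontal axis, grouped by role; filled black points mark genes whose mice did not overlap between diets. Most points lie between 0 and 0.5, with Bdh2 at -1.33 and Pdk4 at 1.40 as the extremes.

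Single mice were not alike. The median deviation of the 40 genes from the mean of the 8 mice, on the log2 scale, was 0.02 in Control mouse 1, 0.00 in Control mouse 2, -0.24 in Control mouse 3 and -0.13 in Control mouse 4. In Low AA mice 1 to 4 it was 0.09, 0.15, 0.06 and 0.06. The diets did not overlap in it, but Control mice 1 and 2 lay close to the Low AA mice and Control mouse 3 far below them, and over all genes the same median stayed between 0.00 and 0.02. Control mouse 3 had the lowest of the 8 values in 26 of the 40 genes and the highest in none. Without Control mouse 3 the median log2 difference of the members was 0.15, and without Control mouse 2, the mouse with high Cela1, it was 0.20. The 40 genes together took 2.74% to 3.83% of all scaled read counts on the Control diet and 3.34% to 4.29% on the Low AA diet, ranges that overlap. The spread within a diet was wider among Control mice, with a median SD of 0.19 over the members on the log2 scale against 0.10 among Low AA mice. Control mice had the larger SD in 30 of 40 members, 75%, and in 67.5% of all genes.

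**Figure D3:**
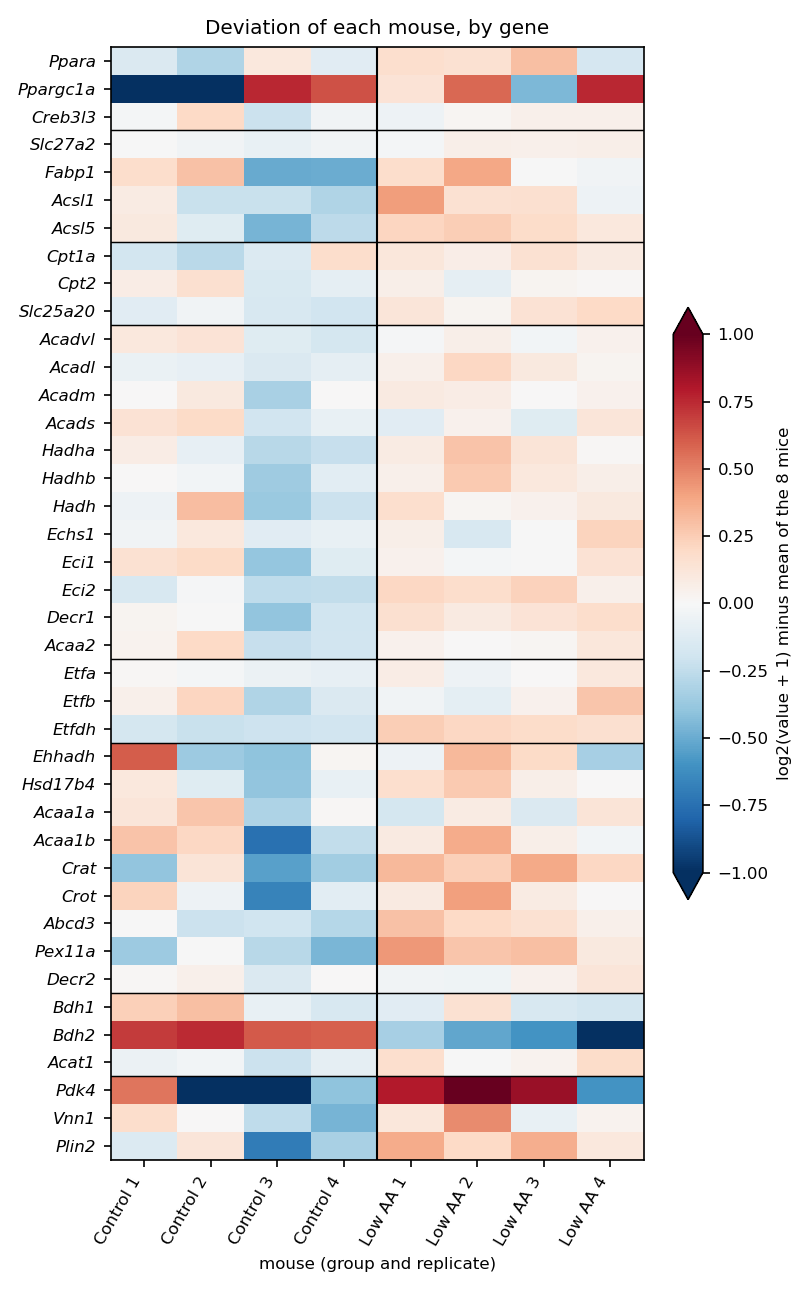
Colour map of log2(value + 1) minus the mean of the 8 mice for each gene (rows, in blocks by role) in each mouse (columns), with the colour scale ending at -1 and 1. Control mouse 3 is blue in most rows, Control mice 1 and 2 are mixed, and the Bdh2 row is red in all Control mice and blue in all Low AA mice.

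The 3 regulators were positive without a call. Ppara, the nuclear receptor itself, lies on chromosome 15 from 85734983 to 85802819 of GRCm38 in GENCODE. Its scaled read counts were 11804, 10553, 13981 and 12009 in the Control mice and 14654, 14449, 16011 and 11598 in the Low AA mice. Low AA mouse 4 lay inside the Control range, and the log2 difference was 0.23 (SE 0.13, limma adjusted p = 0.538). Ppargc1a, which encodes the coactivator PGC-1α and is induced by fasting, had 477, 465, 1828 and 1686 in the Control mice and 1191, 1612, 794 and 1831 in the Low AA mice. The Control mice fell into a low and a high pair that spanned nearly the whole Low AA range, so the log2 difference of 0.51 had a 95% interval of -0.54 to 1.56 (limma adjusted p = 0.751). Creb3l3, a liver transcription factor that acts together with PPARA in fasting, had 15279 ± 1792 on the Control diet and 15578 ± 521 on the Low AA diet (SD, n = 4 each), a log2 difference of 0.03 with a 95% interval of -0.20 to 0.27.

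Uptake and activation genes were all positive, from 0.07 to 0.37 on the log2 scale. Acsl5, one of the long-chain acyl-CoA synthetases that couple fatty acids to coenzyme A, had 13829, 11926, 9384 and 10793 in the Control mice and 15038, 15342, 14674 and 13924 in the Low AA mice. The lowest Low AA mouse was just above the highest Control mouse, and the log2 difference was 0.37 (SE 0.12, limma adjusted p = 0.255). Acsl1, the major synthetase of liver, had a log2 difference of 0.34 (limma adjusted p = 0.360), with Low AA mouse 4 at 68407 below Control mouse 1 at 74914. Fabp1 had 149745, 162502, 93301 and 93841 in the Control mice and 149927, 172890, 132390 and 129478 in the Low AA mice. Its Control values formed a high and a low pair, and the log2 difference of 0.27 had a 95% interval of -0.19 to 0.72. Slc27a2, a fatty acid transporter and very long chain acyl-CoA synthetase, varied little, with 77132 ± 1416 and 81202 ± 1972 (SD, n = 4 each) and a log2 difference of 0.07 (limma adjusted p = 0.833).

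The carnitine shuttle genes differed among themselves in how well the mice separated, although none was called. Slc25a20, the inner membrane carrier that exchanges acylcarnitine for carnitine, had 6306, 6629, 6095 and 5964 in the Control mice and 7420, 6949, 7523 and 7822 in the Low AA mice. All Low AA mice were above all Control mice, with a log2 difference of 0.25 (SE 0.09, limma adjusted p = 0.273), and this separation was also present with equal totals. Cpt1a, the outer membrane transferase at which malonyl-CoA controls entry, had 34465, 32555, 35744 and 44249 in the Control mice and 42553, 40985, 43520 and 41791 in the Low AA mice. Control mouse 4 held the highest value of all 8 and the other Control mice lay below every Low AA mouse, with a log2 difference of 0.21 (SE 0.12, limma adjusted p = 0.533). Cpt2, which reforms acyl-CoA in the matrix, had nearly equal means, 8594 ± 858 and 8596 ± 372 (SD, n = 4 each). Its log2 difference was 0.00, with a 95% interval of -0.21 to 0.22.

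The 12 genes grouped under the mitochondrial spiral, Eci2 among them, had log2 differences from -0.04 to 0.33, with a median of 0.13. None was called. Among the acyl-CoA dehydrogenases, which take the first step and differ in preferred chain length, Acadl (long chain) was the one without overlap. It had 11986, 11857, 11345 and 11781 in the Control mice and 13008, 14439, 13418 and 12761 in the Low AA mice, a log2 difference of 0.19 (SE 0.09, limma adjusted p = 0.424). Acadm, the medium-chain enzyme, had 23782, 25362, 18871 and 23729 in the Control mice and 25159, 24922, 23733 and 24441 in the Low AA mice. Apart from a low Control mouse 3 these ranges coincided, and the log2 difference was 0.11 with a 95% interval of -0.14 to 0.35. Acadvl (very long chain) and Acads (short chain) had log2 differences of 0.03 and -0.04, with 95% intervals of -0.20 to 0.26 and -0.29 to 0.22.

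The trifunctional protein, which carries out the remaining steps for long chains at the inner membrane, is made from Hadha and Hadhb, neighbours on chromosome 5 that are read in opposite directions. Hadha had 24985, 22423, 19586 and 20189 in the Control mice and 25046, 28804, 25906 and 23833 in the Low AA mice, a log2 difference of 0.25 (SE 0.11, limma adjusted p = 0.420). Hadhb had 19096, 18698, 14915 and 17741 in the Control mice and 19736, 22792, 20481 and 19880 in the Low AA mice, a log2 difference of 0.24 (SE 0.11, limma adjusted p = 0.431). Hadhb did not overlap between the diets and Hadha did, because of Low AA mouse 4. The 2 subunits stayed in a narrow ratio, with the scaled count of Hadha over that of Hadhb between 1.14 and 1.31 over the 4 Control mice, and a mean ratio of 1.24 ± 0.0858 on the Control diet and 1.25 ± 0.0336 on the Low AA diet (SD, n = 4 each). Of the 100-base windows of the Hadhb transcript, 52.8% also occur in the pseudogene Gm13910, so part of its reads could have been shared with that locus.

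Among the auxiliary enzymes for unsaturated chains, Eci2 and Decr1 did not overlap between diets. Eci2 encodes an enoyl-CoA isomerase found in peroxisomes as well as mitochondria. It had 9213, 10237, 8631 and 8698 in the Control mice and 11904, 11644, 12105 and 10664 in the Low AA mice. Its log2 difference was 0.33 (SE 0.09, limma adjusted p = 0.181). Decr1, the mitochondrial 2,4-dienoyl-CoA reductase, had 15670, 15343, 11676 and 13392 in the Control mice and 17163, 16322, 16844 and 17349 in the Low AA mice, a log2 difference of 0.28 (SE 0.11, limma adjusted p = 0.348). The Control mice with the lower Decr1 values were again mice 3 and 4. The matrix enzymes for shorter chains, Echs1, Hadh and Acaa2, and the isomerase Eci1 had overlapping values and log2 differences of 0.06, 0.16, 0.09 and 0.08.

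Electrons from the dehydrogenases pass through electron transfer flavoprotein, made from Etfa and Etfb, to the membrane enzyme ETF-ubiquinone oxidoreductase, the product of Etfdh. Etfdh lies on chromosome 3 from 79603788 to 79629500 of GRCm38 in GENCODE. Its scaled read counts were 17617, 17064, 17179 and 17361 in the Control mice and 23542, 22944, 22628 and 22232 in the Low AA mice. The mice within each diet were nearly equal, with the smallest SD of the 40 genes on the log2 scale in both diets, and the gap between diets was far wider than either. The mean on the Low AA diet was 1.32 times that on the Control diet, a log2 difference of 0.40 with a 95% interval of 0.21 to 0.59. With the variance moderated over genes by limma, the adjusted p was 0.0831, so Etfdh was not called, and over the 15 alternatives it ran from 0.0812 to 0.278. The 2 flavoprotein subunits overlapped between diets, although Etfa did not with equal totals. Etfa and Etfb had log2 differences of 0.07 and 0.09, with 95% intervals of -0.12 to 0.26 and -0.20 to 0.39. The ratio of Etfa to Etfb in scaled counts ran from 0.817 to 1.14 on the Control diet and from 0.855 to 1.04 on the Low AA diet. Of the 100-base windows of Etfb, 65.2% also belong to the overlapping gene model Gm45233, so the value of Etfb is uncertain.

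The 9 peroxisomal genes had a median log2 difference of 0.25, against 0.13 over the 18 genes of the carnitine shuttle, the mitochondrial spiral and electron transfer. Without Control mouse 3 these medians were 0.12 and 0.06, and without Control mouse 1 the peroxisomal one was 0.38. Eci2 was counted among the 18 and Crat among the 9, although the product of each occurs in both compartments. Both medians describe the chosen genes only. In the wider list given below, 25 peroxisomal genes had a median of 0.01 and 13 mitochondrial oxidation genes one of -0.06. Of the 9 chosen peroxisomal genes, the 3 without overlap between diets were Pex11a, Crat and Abcd3. Pex11a, a membrane protein of peroxisome division and a PPARA target, had 2084, 2671, 2206 and 1951 in the Control mice and 3609, 3244, 3304 and 2861 in the Low AA mice. The Low AA mean was 1.46 times the Control mean, a log2 difference of 0.55 (SE 0.12, limma adjusted p = 0.0869). Crat, carnitine acetyltransferase of mitochondria and peroxisomes, had 5297, 7600, 4779 and 5467 in the Control mice and 8713, 8193, 9019 and 7999 in the Low AA mice. Control mouse 2 stood well above the other Control mice and close to the Low AA mice, and the log2 difference was 0.57 (SE 0.14, limma adjusted p = 0.124). Abcd3, a transporter that brings acyl-CoA into peroxisomes, had 30140, 26068, 26449 and 24911 in the Control mice and 37161, 34753, 33731 and 31450 in the Low AA mice. Its log2 difference was 0.35 (SE 0.10, limma adjusted p = 0.197). Without Control mouse 2, which held the highest Control value of both, Crat and Pex11a were called, with limma adjusted p of 0.0163 and 0.0337. That fit called 77 genes over the whole table, against 47 with all mice. Over the 15 alternatives the adjusted p of Crat and Pex11a ran up to 0.355 and 0.282.

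The abundant β-oxidation enzymes of peroxisomes did not separate. Ehhadh had 168671, 85923, 83665 and 112384 in the Control mice and 106874, 138627, 126667 and 87924 in the Low AA mice. Control mouse 1 held the highest value of the 8, and the log2 difference of 0.07 had a 95% interval of -0.45 to 0.59. Acaa1b had 102289, 96520, 50073 and 70851 in the Control mice and 89319, 108415, 87425 and 82205 in the Low AA mice, with Control mouse 3 the lowest. Its log2 difference was 0.25, with a 95% interval of -0.23 to 0.72, while that of its near copy Acaa1a was -0.05. The thiolases Acaa1a and Acaa1b share 21.6% and 22.6% of their 100-base windows with each other, so their separate values are uncertain, and their sum ran from 58099 to 113078 on the Control diet and from 93070 to 118929 on the Low AA diet. Hsd17b4, the other multifunctional enzyme, and Crot, which makes medium-chain acylcarnitines for export to mitochondria, had log2 differences of 0.24 and 0.30. For Decr2, the peroxisomal dienoyl-CoA reductase, it was 0.04.

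**Figure D4:**
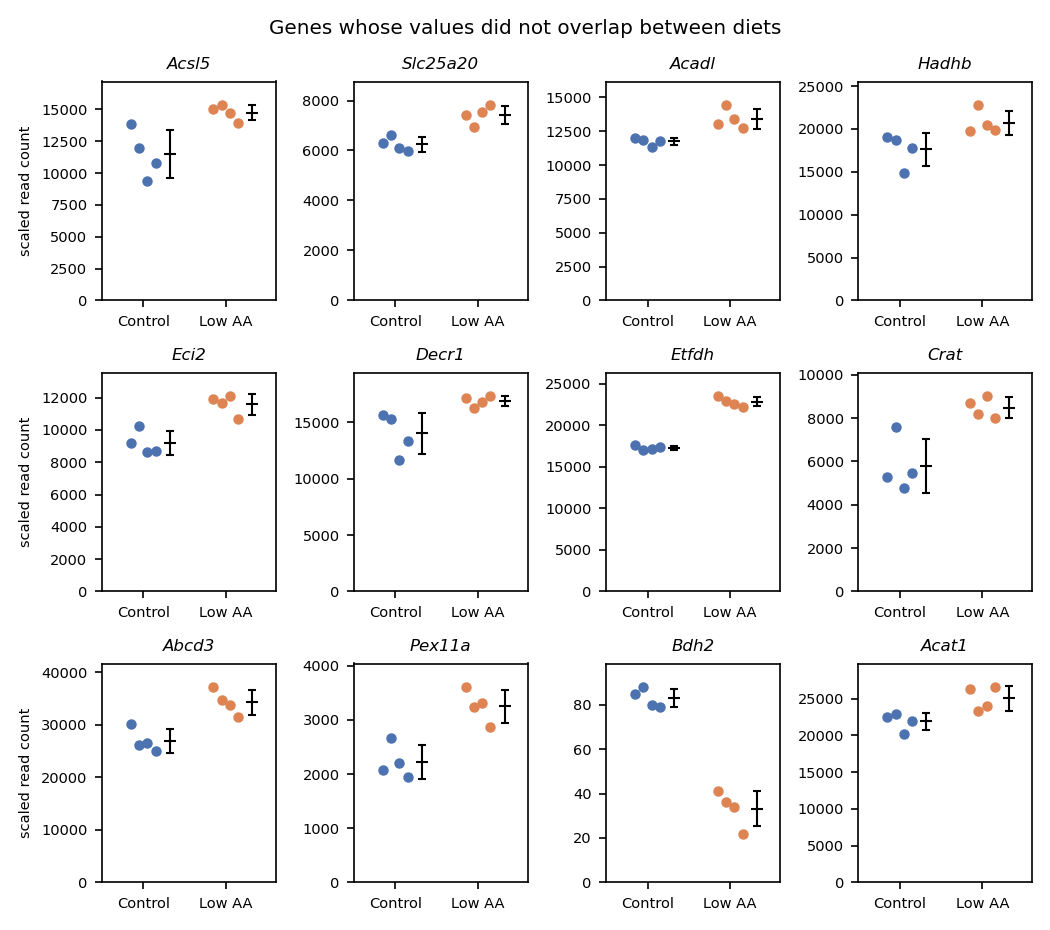
Scaled read counts by mouse for the 12 genes whose values did not overlap between diets, with 1 point per mouse, the mean and SD in black beside them, and each vertical axis starting at 0. Etfdh has the tightest groups, and Bdh2 is the gene that is lower on the Low AA diet.

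The ketone body genes did not move together. Bdh2, a cytosolic short-chain dehydrogenase named for activity on 3-hydroxybutyrate, lies on chromosome 3 from 135281221 to 135304426 of GRCm38 in GENCODE. It had 85, 88, 80 and 79 scaled read counts in the Control mice and 41, 36, 34 and 22 in the Low AA mice. The diets did not overlap, and the Low AA mean was 0.401 times the Control mean. With values this low and 4 mice per diet, the closeness of the Control values is no firm measure of precision. Bdh2 fell by 1.33 on the log2 scale (SE 0.21, limma adjusted p = 0.0308), with all 4 Low AA mice lower. It is the least abundant of the 40 genes per length, and the mitochondrial enzyme Bdh1 that interconverts acetoacetate and 3-hydroxybutyrate in ketogenesis is a different gene. Over the 14 alternatives that keep Bdh2 its log2 difference stayed negative, and its adjusted p ran from 0.0231 to 0.0880. The call was lost without Control mouse 1 (limma adjusted p = 0.0832), Control mouse 3 (0.0668), Control mouse 4 (0.0675), Low AA mouse 2 (0.0666) or Low AA mouse 3 (0.0880).

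Bdh1 had 12372, 12934, 9936 and 9354 in the Control mice and 9694, 11668, 9360 and 9244 in the Low AA mice. The ranges overlapped, and its log2 difference of -0.15 had a 95% interval of -0.44 to 0.14 (limma adjusted p = 0.735). Acat1, the mitochondrial acetoacetyl-CoA thiolase, had 22480, 22898, 20190 and 21974 in the Control mice and 26322, 23257, 23933 and 26583 in the Low AA mice. All Low AA mice were above the Control mice, narrowly so for Low AA mouse 2 and Control mouse 2, with a log2 difference of 0.19 (SE 0.10, limma adjusted p = 0.483).

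**Figure D5:**
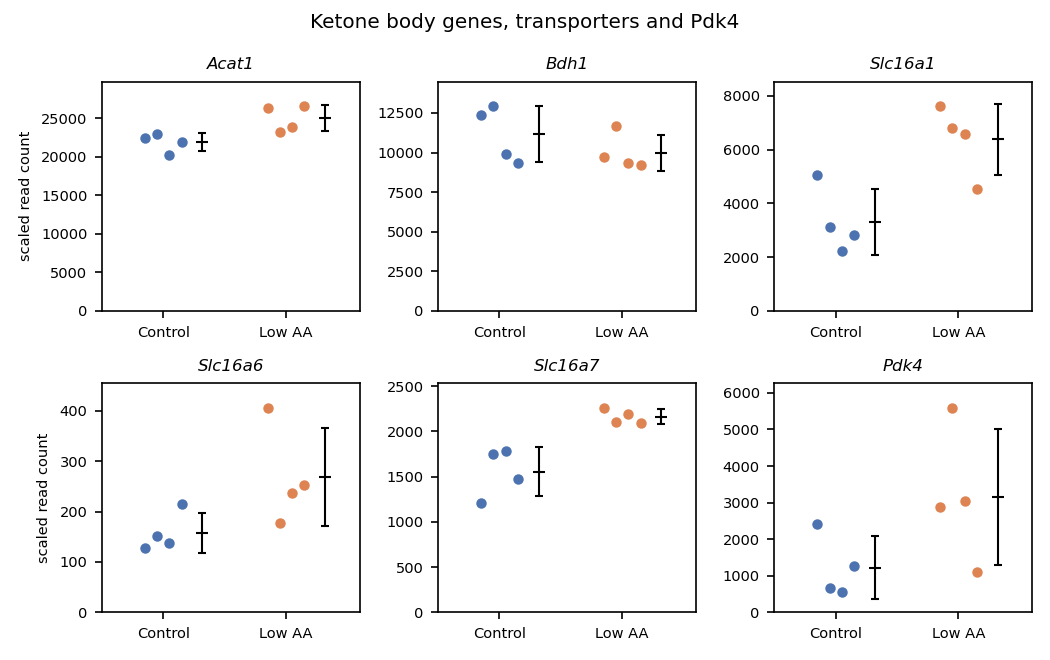
Scaled read counts by mouse for ketone body enzymes, monocarboxylate transporters and Pdk4, with 1 point per mouse, the mean and SD in black, and each vertical axis starting at 0. Bdh1, Slc16a1, Slc16a6 and Pdk4 overlap between diets, and Slc16a7 and Acat1 do not.

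The further PPARA targets held the largest positive difference of the 40 genes, in Pdk4, which also had the widest log2 spread among Low AA mice. Pdk4, the kinase that shuts pyruvate dehydrogenase in fasting, had 2419, 670, 545 and 1265 in the Control mice and 2889, 5599, 3039 and 1102 in the Low AA mice. The first 3 Low AA mice were above every Control mouse and the fourth was below Control mice 1 and 4. The Low AA mean was 2.58 times the Control mean, a log2 difference of 1.40 with a 95% interval of 0.22 to 2.57 (SE 0.53, limma adjusted p = 0.324). Plin2, which coats lipid droplets, had 41583, 49710, 28283 and 36654 in the Control mice and 59397, 52540, 58955 and 49325 in the Low AA mice. The overlap was between Control mouse 2 and Low AA mouse 4 alone, and the log2 difference was 0.52 (SE 0.17, limma adjusted p = 0.235). Vnn1, a pantetheinase, had a log2 difference of 0.27 with a 95% interval of -0.08 to 0.63.

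Of 99 other genes of the pathway, written as a list from general knowledge, 93 were in the table. By limma 0 of the 93 were called, with 15 higher and 7 lower at an unadjusted p under 0.05, where 5.13% and 6.70% of all genes were. Their log2 differences had a median of 0.06, with 55 above 0 and 38 below. By role, the median was 0.01 over 25 peroxisomal genes (13 above 0, 12 below) and -0.06 over 13 mitochondrial oxidation genes (4 above, 9 below). Over 10 uptake and activation genes it was 0.03 (5 above, 5 below), and over 18 regulators 0.07 (14 above, 4 below). It was 0.13 over 5 carnitine supply genes (4 above, 1 below) and 0.28 over 6 ketone genes (4 above, 2 below). For 9 lipase and lipid droplet genes it was 0.23, and for 7 genes grouped with malonyl-CoA synthesis 0.26. In 6 of the 93 genes, 6.45%, all Low AA mice were above all Control mice, where 3.26% of all genes were. In 3 all were below, a share near the 3.55% of all genes. The largest differences among those 6 were of Hacl1, the lyase of peroxisomal α-oxidation, with 10009 ± 2289 and 18144 ± 3324 (SD, n = 4 each, Control first), and of Plin5, a lipid droplet protein of oxidative tissues, with 3807 ± 708 and 5878 ± 420. Their log2 differences were 0.87 and 0.64, both with a limma adjusted p of 0.0811. Mgll, monoglyceride lipase, Slc16a7, a monocarboxylate transporter, and Esrra, a nuclear receptor partner of PGC-1α, followed with 0.50, 0.49 and 0.34 (limma adjusted p = 0.160, 0.146 and 0.276). The 3 below were Acadsb, which acts on branched short chains from isoleucine, at -0.51, Acox3 at -0.30 and the acyl-CoA synthetase Acsf2 at -0.25 (limma adjusted p = 0.114, 0.299 and 0.310). Without Control mouse 2, Plin5 and Acadsb were called, with limma adjusted p of 0.0245 and 0.0369, in a fit that called 77 genes over the whole table against 47.

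Other steps of the pathway overlapped between the diets. Slc22a5, the carnitine importer, Cd36, a fatty acid receptor, and Acacb, which makes malonyl-CoA at the mitochondrial surface, had log2 differences of 0.40, 0.45 and 0.48 (limma adjusted p = 0.326, 0.538 and 0.256). For the secreted PPARA targets Angptl4 and Fgf21 they were 0.26 and 0.56 (limma adjusted p = 0.466 and 0.592). Slc16a1, which encodes MCT1, a carrier of ketone bodies and lactate, was named after its values were seen. It had 5059, 3134, 2216 and 2831 in the Control mice and 7614, 6783, 6574 and 4530 in the Low AA mice, with overlap between Control mouse 1 and Low AA mouse 4 alone, and a log2 difference of 0.99 (SE 0.24, limma adjusted p = 0.124).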

How the data were processed

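Poly(A) liver RNA from 8 mice was profiled as stranded libraries. The submitters' processing notes name bcl2fastq 1.8.2, STAR 2.5.0a, RSEM 1.2.6, edgeR 3.10.5, R 3.2.1 and mm10, with no roles given. The authors deposited 1 table of 11784 genes, in which the value per mouse is treated as a score, apparently a read count scaled between mice and rounded. Scaling was inferred from regular gaps and doublings among low whole numbers, and its method was not stated in the sources used here. The third highest value was at least 28 in every gene, so low genes had been removed. The authors also deposited a signed fold change, likewise a score, and an FDR (q-value), and neither was used. Count models were not applied.

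The log2(value + 1) values entered limma 3.58.1 (R 4.3.3, trend on), Low AA against Control, without covariates and with Benjamini-Hochberg adjustment over all genes. A minimum of 1 in 4 or more mice left out 0 genes. The fit was tested on simulated data. Intervals are 95% from the moderated statistic. The 40 members, the role groups, the wider list and the tests were chosen with earlier results of these data known. All members were accounted for. Values by mouse were given for called members, members without overlap, members differing by 0.5 or more on the log2 scale, and members set in the design. Of the last, Creb3l3 and Cpt2 were given as mean and SD instead. In the wider list, called genes, those without overlap (the 5 largest each way) and 5 genes set in the design were named. Some genes of the pathway are not reported here. Transcript lengths and positions were from GENCODE vM21 and shared sequence was counted in windows of 100 bases, the read length. Alternatives were a pseudocount of 0.1 or of 5, a fit on the 8000 most abundant genes, no trend, robust moderation, equal totals, equal medians and each mouse left out. Figures were drawn with matplotlib 3.10.9.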

Additional observations from a re-analysis of the deposited data

Results flagged for a closer look

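Of 108 groups of 4 mice examined, 2 held 1 mouse far from the others, and chance gives about 1 in 20. Cela1 was the only cell type marker included, so its group should not be set against that rate. Slc27a2 in Low AA mouse 1 was 78246, against 82082 to 82265 in the other Low AA mice, a gap of 0.956 of the group's range within a range that is itself narrow. Cela1 in Control mouse 2 was 36587, against 130 to 178 in the other Control mice, a gap of 0.945 of the range on the log2 scale.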

How the results depend on the processing

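No paired analysis was possible because the labels give no replicate number shared between diets. Of the 40 members, 31 kept their direction in every one of the 15 alternatives that tested them (14 for Bdh2). The other 9 changed direction in fits without 1 mouse, where their log2 fold changes ran from -0.0303 to 0.1061 (Creb3l3), -0.0461 to 0.0583 (Cpt2), -0.0234 to 0.0805 (Acadvl), -0.1053 to 0.0236 (Acads), -0.0040 to 0.1229 (Echs1), -0.0306 to 0.1614 (Eci1), -0.0540 to 0.2832 (Ehhadh), -0.1644 to 0.0311 (Acaa1a) and -0.0016 to 0.0648 (Decr2). Leaving out 1 mouse gave 16 to 77 called genes in the whole table against 47, 0 to 3 called members against 1, 0 to 2 called genes of the wider list against 0, 12 to 17 members without overlap against 12 (a count that can only stay or rise with fewer mice, as did the shares of all genes, to 3.89% to 5.96% higher and 4.09% to 6.81% lower), and a median log2 fold change of 0.15 to 0.22 over the members, 0.06 to 0.18 over the mitochondrial, 0.12 to 0.38 over the peroxisomal and -0.23 to -0.07 over the ketone genes. The ketone group holds 3 genes, and its median in these fits was the value of Bdh1. In the main fit the 6 genes of the wider list grouped as ketone genes had a median of 0.28, with 4 above 0 and 2 below. The 77 genes, and the 3 members Bdh2, Crat and Pex11a, were called without Control mouse 2. The whole table gave 29 without Control mouse 1 and 21, 19 and 16 without Low AA mice 1, 2 and 3. With no mean-variance trend 30 genes were called. Among the 8000 genes with the highest mean 19 genes and 0 members were called, since Bdh2 is not among them, and the ketone median became 0.0208 for the same reason. With equal totals 7 members did not overlap; the cause was not tested. The values are not raw counts, so precision from counting was not computed, and Bdh2, with 22 to 88 scaled read counts, is where low counts limit most.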
